A study of Mus musculus with 2 samples.

Results

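The genes described here are 10 genes of the early blood vessel and its progenitor, chosen by symbol from the 24340 genes of the deposited expression table. They are the VEGF receptors Kdr, Flt1 and Flt4, the Tie receptors Tek and Tie1, the junction genes Pecam1 and Cdh5, the TGF-beta co-receptor Eng, and the hemangioblast transcription factors Etv2 and Tal1. All 10 were found. The rule uses no measured value, but the genes were chosen with earlier results of these data known. The table holds mRNA levels, measured by RNA-seq, in the trunk of E8.5 mouse embryos, in an Aldh1a2-/- sample and a wild-type sample. Aldh1a2 encodes the enzyme that makes retinoic acid (RA) in trunk mesoderm, and the study asked which genes depend on RA. The knockout is present in every tissue of the embryo. The methods of the study describe a cut across the posterior hindbrain and another just behind the newest somite. These cuts were made to remove the head, pharyngeal region, heart and tail-end progenitors. The labels give 1 sample of each genotype, whereas the methods of the study count 2 trunks of each.

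Endothelial cells of the trunk arise from mesoderm that switches on Kdr. Etv2, an ETS family factor made for a short time in this mesoderm, starts the endothelial and blood programme, and Tal1 directs part of it towards blood. The resulting cells make VEGF and Tie receptors, join one another through VE-cadherin and Pecam1, and line the dorsal aortae and the first intersomitic vessels. In the yolk sac the same kind of progenitor gives the first endothelium and the first red blood cells.

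Levels are FPKM, fragments scaled to transcript length and to the size of the library, so they can be compared between genes. A gene was called measured when its FPKM was above 0.5 in both samples, and higher or lower when its Aldh1a2-/- FPKM divided by its wild-type FPKM was above 0.85 or below -0.85 in log2, the floor and cutoffs used in the study. With 1 sample per genotype there is no spread between embryos, no test was run and no p-value is given. The interval beside a ratio is a 95% exact binomial (Clopper-Pearson) interval from estimated fragments and covers counting error only. The step between low FPKM values gave the depth: 1 FPKM corresponds to about 31.7 fragments per kilobase of effective transcript length in Aldh1a2-/- and 30.2 in wild-type, so that 0.5 FPKM in a 2-kilobase transcript is about 28.5 fragments in Aldh1a2-/- and 27.2 in wild-type. Aldh1a2 itself was at 11.7 FPKM in Aldh1a2-/- and 128 FPKM in wild-type (log2 ratio -3.45), in the direction of the labels. A total of 9506 genes were measured, and their median log2 ratio was 0.02. In bulk tissue, fewer cells of a type and less RNA per cell cannot be told apart.

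The sequences before the gene starts of 4 of the 10 genes are shown because these genes hold the highest ratio (Eng), the lowest ratio (Etv2), the highest level (Kdr) and the most unequal pair of VEGF receptors (Flt1 beside Kdr). Each is the 250 bases before the RefSeq gene start on GRCm38.p6, written 5′ to 3′ on the strand of the gene. Capitals mark CCGGAA or AGGAAG on either strand, called the ETS core here. These are not the only spellings that ETS factors such as Etv2 recognise.
Eng: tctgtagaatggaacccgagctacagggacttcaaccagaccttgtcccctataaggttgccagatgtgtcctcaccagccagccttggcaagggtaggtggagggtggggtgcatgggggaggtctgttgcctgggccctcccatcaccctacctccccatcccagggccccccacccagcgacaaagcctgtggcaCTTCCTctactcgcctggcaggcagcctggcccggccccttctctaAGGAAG
Flt1: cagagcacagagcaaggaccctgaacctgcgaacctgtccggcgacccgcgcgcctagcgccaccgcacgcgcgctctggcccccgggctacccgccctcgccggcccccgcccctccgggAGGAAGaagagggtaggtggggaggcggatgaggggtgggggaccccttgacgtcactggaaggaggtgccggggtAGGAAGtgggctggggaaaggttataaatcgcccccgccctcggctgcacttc
Kdr: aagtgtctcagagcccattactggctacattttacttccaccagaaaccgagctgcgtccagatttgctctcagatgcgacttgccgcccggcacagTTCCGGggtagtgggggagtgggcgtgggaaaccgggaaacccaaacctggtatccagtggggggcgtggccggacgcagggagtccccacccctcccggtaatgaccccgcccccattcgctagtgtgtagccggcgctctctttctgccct
Etv2: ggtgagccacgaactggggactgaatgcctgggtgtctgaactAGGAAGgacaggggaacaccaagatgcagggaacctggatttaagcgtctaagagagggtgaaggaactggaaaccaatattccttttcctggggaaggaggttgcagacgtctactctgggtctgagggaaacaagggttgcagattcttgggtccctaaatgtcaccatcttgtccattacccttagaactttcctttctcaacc

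These windows lie at chr2:32646345-32646594 on the plus strand (Eng), chr5:147726012-147726261 on the minus strand (Flt1), chr5:75978456-75978705 on the minus strand (Kdr) and chr7:30635853-30636102 on the minus strand (Etv2). The ETS cores begin 52 and 6 bases before the start of Eng, 129 and 53 bases before that of Flt1, 153 bases before that of Kdr and 207 bases before that of Etv2. RefSeq promoters were matched for 8 of the 10 genes, the others being Pecam1 and Cdh5. An ETS core stood in 5 of the 8 (Tie1 is the fifth), against 38.2% of all 32851 promoters. Flt4, Tek and Tal1 had neither of the searched spellings. The genes called higher included Tek without a marked core, and Eng and Flt1 with 2 each. The gene called lower, Etv2, had 1. Other ETS spellings were not searched, so a window without a marked core may still hold an ETS site. The E-box CANNTG, a letter pattern bound by factors of the Tal1 class, stood in 5 of the 8, against 66.2% of promoters. Its CAGATG form stood in 3 of the 8 (Kdr, Tie1 and Eng), against 14.4% of promoters, and begins 179, 183 and 189 bases before their starts. The GATA site AGATAA stood in Tal1 alone, against 9.99% of promoters. Tal1 was matched to 2 windows, of which 1 held this site, and a motif in either window was counted. The exact letters AGGTCA, 1 of several spellings of the unit of a retinoic acid response element, stood in 0 of the 8, against 14.0% of promoters, and direct repeats of these letters spaced by 1, 2 or 5 bases stood in 17 promoters of the whole set (0.0517%). The other spellings were not searched, so these counts do not say whether the windows hold such elements. Both strands were searched and every CAGATG is also counted as a CANNTG. A match is a string of letters and not a shown binding site.

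All 10 genes were measured. Eng, Tek, Flt1 and Cdh5 were higher in Aldh1a2-/- (4 of 10, beside 23.6% of all measured genes), Etv2 was lower (1 of 10, beside 22.0% of all measured genes), and Kdr, Flt4, Tie1, Pecam1 and Tal1 lay within the cutoffs. The median log2 ratio of the 10 was 0.35, against 0.02 for all measured genes, whose quartiles were -0.71 and 0.79. Their FPKM summed to 101 in Aldh1a2-/- and 66.2 in wild-type, a ratio of 1.52, and their median level was 8.14 FPKM in Aldh1a2-/- and 6.19 FPKM in wild-type. Eng, Tek and Cdh5 each added more than the other 7 did singly to the gap between the sums. The differences were 12.5 FPKM for Eng, 11.4 FPKM for Tek and 9.27 FPKM for Cdh5.

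**Figure D1:**
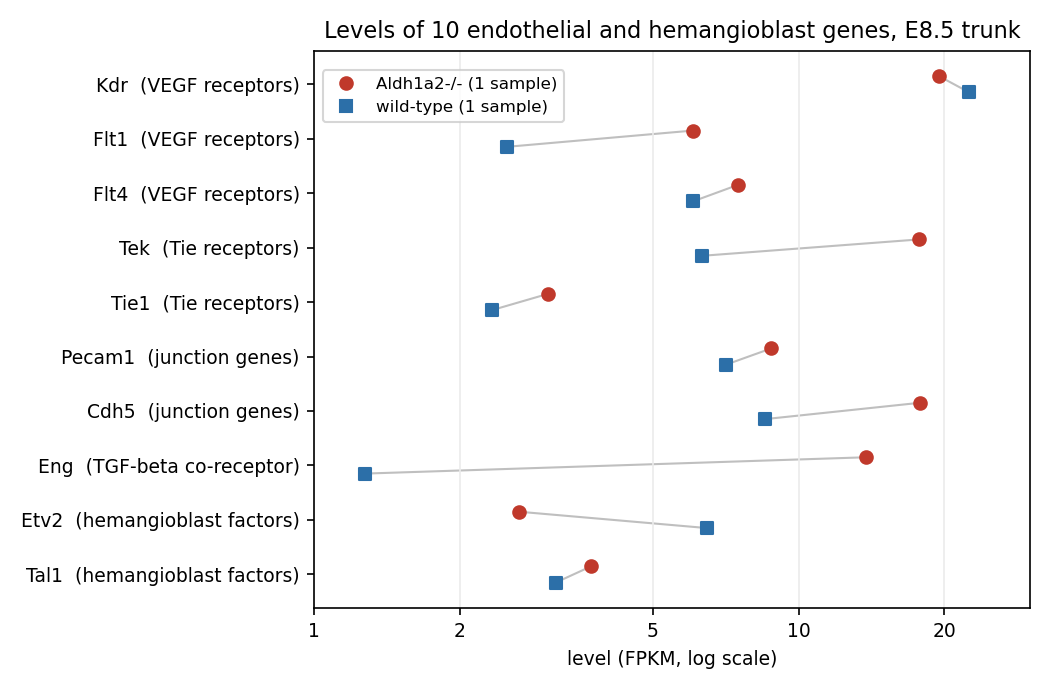
Level of each of the 10 genes in FPKM (log scale) in Aldh1a2-/- (red circles) and wild-type (blue squares) trunk tissue, 1 sample each, in order of role. Eng spans the widest gap, 13.8 FPKM in Aldh1a2-/- against 1.27 FPKM in wild-type, Kdr is the highest gene in both samples, and Etv2 and Kdr are the genes whose wild-type point lies to the right.

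The VEGF receptors did not move together. Kdr, the main signalling receptor for Vegfa and the earliest of these receptors in mesoderm, was at 19.5 FPKM in Aldh1a2-/- and 22.5 FPKM in wild-type, a log2 ratio of -0.21 (counting interval -0.27 to -0.14) from about 3529 and 3883 fragments. It was the highest of the 10 genes in both samples and within the cutoffs. Flt1, which binds Vegfa tightly but signals weakly and holds it back from Kdr, was at 6.07 FPKM in Aldh1a2-/- and 2.50 FPKM in wild-type, 2.43-fold higher (log2 ratio 1.28, interval 1.13 to 1.43). The Flt1 level was therefore 0.311 of the Kdr level in Aldh1a2-/- and 0.111 of it in wild-type. Flt4, the receptor for Vegfc, was at 7.49 FPKM in Aldh1a2-/- and 6.06 FPKM in wild-type (log2 ratio 0.31, interval 0.19 to 0.42), within the cutoffs, and its level was 0.384 of that of Kdr in Aldh1a2-/- and 0.269 of it in wild-type. On mm10 Kdr spans chr5:75933270-75978428 and Flt1 chr5:147562196-147725988, both on the minus strand, and Flt4 spans chr11:49609679-49652739 on the plus strand.

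The ligands of these receptors and their co-receptors had ratios of either sign. Of 6 measured genes of this list, 1 was higher and 0 were lower (beside 23.6% and 22.0% of all measured genes), with a median log2 ratio of 0.01. Plxnd1, a semaphorin receptor of endothelium, was the gene called higher, at 17.5 FPKM in Aldh1a2-/- and 8.28 FPKM in wild-type (log2 ratio 1.08). Vegfa, the ligand shared by Kdr and Flt1, was at 28.6 FPKM in Aldh1a2-/- and 27.9 FPKM in wild-type (log2 ratio 0.04). Vegfc, the Flt4 ligand, was at 9.84 FPKM in Aldh1a2-/- and 13.9 FPKM in wild-type (log2 ratio -0.50), and the co-receptor Nrp1 was at 35.5 FPKM in Aldh1a2-/- and 25.7 FPKM in wild-type (log2 ratio 0.47). Vegfb, a ligand of Flt1, had a log2 ratio of -0.17, and Pgf, another Flt1 ligand, was listed at 0 in Aldh1a2-/- and at 2.93 FPKM in wild-type.

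The Tie receptors differed from each other as well. Tek, the angiopoietin receptor, was at 17.7 FPKM in Aldh1a2-/- and 6.33 FPKM in wild-type, 2.80-fold higher (log2 ratio 1.48, interval 1.37 to 1.60), from about 2499 fragments in Aldh1a2-/- and 850 in wild-type. Tek carries in the deposited table the status FAIL, given to 82 genes whose own comparison did not complete numerically, and its FPKM values are listed all the same. Tie1, the partner receptor that binds no angiopoietin strongly by itself, was at 3.04 FPKM in Aldh1a2-/- and 2.32 FPKM in wild-type (log2 ratio 0.39, interval 0.16 to 0.61), within the cutoffs. The Tek level was 5.83 times the Tie1 level in Aldh1a2-/- and 2.72 times it in wild-type. Without Tek, the median log2 ratio of the other genes was 0.31. Tek spans chr4:94739289-94874976 on the plus strand and Tie1 chr4:118471191-118489849 on the minus strand.

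Of the angiopoietins and the Tie receptor phosphatase, 1 of 4 genes was measured and none was past a cutoff. Angpt2, the angiopoietin that can oppose Tek signalling, was at 5.20 FPKM in Aldh1a2-/- and 7.21 FPKM in wild-type (log2 ratio -0.47). Angpt1, the activating Tek ligand, was listed at 0 in Aldh1a2-/- and at 7.82 FPKM in wild-type, also with the status FAIL. Ptprb, the phosphatase that acts on Tek, was at 0.205 FPKM in Aldh1a2-/- and 0.840 FPKM in wild-type, and Angpt4 was listed at 0 in Aldh1a2-/- and at 2.22 FPKM in wild-type. Angpt1, Angpt4 and Ptprb were under the floor in Aldh1a2-/- and have no ratio. A listed 0 was common at such levels. Among genes at 5 to 10 FPKM in the other sample, Aldh1a2-/- had 228 of 2028 (11.2%) at a listed 0, and wild-type had 141 of 1790 (7.88%).

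The junction genes gave 1 call. Cdh5, VE-cadherin of the endothelial adherens junction, was at 17.8 FPKM in Aldh1a2-/- and 8.52 FPKM in wild-type, 2.09-fold higher (log2 ratio 1.06, interval 0.95 to 1.17). With its shortest coding transcript, which would leave about 83 fragments in Aldh1a2-/- and 38 in wild-type, the interval of Cdh5 widened to 0.49 to 1.65 and crossed the cutoff. Pecam1, an adhesion molecule of endothelium and of some blood cells, was at 8.79 FPKM in Aldh1a2-/- and 7.08 FPKM in wild-type (log2 ratio 0.31, interval 0.17 to 0.46), within the cutoffs. The Cdh5 level was 2.02 times the Pecam1 level in Aldh1a2-/- and 1.20 times it in wild-type. On mm10 the deposited locus of Cdh5 is chr8:104088916-104144502 on the plus strand, whereas its GENCODE gene spans chr8:104101625-104144511. That locus also holds Gm29682 on the minus strand, listed at 0 in both samples. The deposited locus of Pecam1 is chr11:106654213-106715281 on the minus strand, and its GENCODE gene spans chr11:106654217-106750628.

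Eng showed the largest ratio of the 10. Endoglin, its product, is a co-receptor on endothelium that presents BMP and TGF-beta ligands to Acvrl1, and it is also made by early blood progenitors. Eng was at 13.8 FPKM in Aldh1a2-/- and 1.27 FPKM in wild-type, 10.8-fold higher (log2 ratio 3.44, interval 3.17 to 3.71), from about 1408 fragments in Aldh1a2-/- and 124 in wild-type. It was the lowest of the 10 genes in wild-type and the fourth highest in Aldh1a2-/-, and made up 13.7% of their summed FPKM in Aldh1a2-/- and 1.92% of it in wild-type. Among all measured genes, 98.2% had a lower ratio. The table gives Eng the locus chr2:32646595-32694175 on the plus strand, a span that also holds Fpgs, which is transcribed from the minus strand and was at 3.81 FPKM in Aldh1a2-/- and 7.99 FPKM in wild-type (log2 ratio -1.07). Whether strand was used in counting is not given in the sources used here, and the part of Fpgs reads in the Eng values was not tested.

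The partners of endoglin had ratios of either sign. Acvrl1, its signalling receptor, was at 3.95 FPKM in Aldh1a2-/- and 4.38 FPKM in wild-type (log2 ratio -0.15), so that the Eng level was 3.49 times the Acvrl1 level in Aldh1a2-/- and 0.290 of it in wild-type. Of 16 measured genes of the endoglin receptor complex and its BMP and TGF-beta readout, 3 were higher and 4 lower, near the 23.6% and 22.0% of all measured genes, with a median log2 ratio of -0.15. Smad9, a BMP effector, was higher (5.18 FPKM in Aldh1a2-/- and 1.16 FPKM in wild-type, log2 ratio 2.16), as was Tgfbr2, the TGF-beta type II receptor (5.68 FPKM in Aldh1a2-/- and 1.68 FPKM in wild-type, log2 ratio 1.76). Tgfbr3, another TGF-beta receptor gene, was higher too (32.2 FPKM in Aldh1a2-/- and 12.4 FPKM in wild-type, log2 ratio 1.37). Smad1, the related BMP effector, was lower, at 9.38 FPKM in Aldh1a2-/- and 33.4 FPKM in wild-type (log2 ratio -1.83). Smad6, an inhibitor that BMP signalling switches on, was lower too, at 3.17 FPKM in Aldh1a2-/- and 9.57 FPKM in wild-type (log2 ratio -1.60). Smad7 and Smad5 were also lower (log2 ratios -1.55 and -0.94), the Smad5 call being lost on the TPM scale. The BMP response genes Id1, Id2 and Id3 had log2 ratios of -0.07, -0.13 and -0.14.

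**Figure D2:**
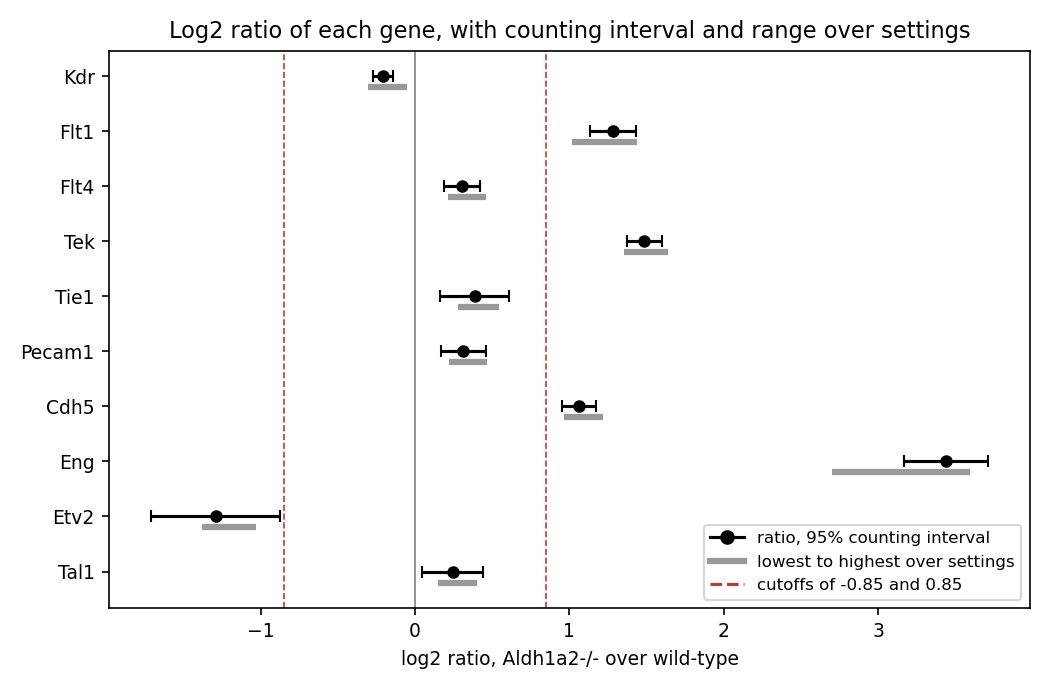
Log2 ratio (Aldh1a2-/- over wild-type) for each of the 10 genes (points), with the 95% counting interval (black bars), the lowest and highest value over the processing alternatives (grey bars) and the cutoffs at -0.85 and 0.85 (dashed). Flt1, Tek, Cdh5 and Eng lie above the upper cutoff and Etv2 below the lower one, with their intervals and grey bars on the same side, while the intervals of the other 5 genes lie between the cutoffs.

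The hemangioblast factors had ratios of opposite sign. Etv2 was at 2.65 FPKM in Aldh1a2-/- and 6.46 FPKM in wild-type, a fold of 0.410 (log2 ratio -1.29). It rests on about 71 fragments in Aldh1a2-/- and 165 in wild-type, and its counting interval, -1.71 to -0.88, ends near the cutoff. Tal1, the bHLH factor needed for blood formation, was at 3.73 FPKM in Aldh1a2-/- and 3.15 FPKM in wild-type (log2 ratio 0.24, interval 0.05 to 0.44), within the cutoffs, and with its shortest coding transcript the interval of Tal1 was -0.35 to 0.83 and held 0. The Etv2 level was 0.709 of the Tal1 level in Aldh1a2-/- and 2.05 times it in wild-type. Etv2 spans chr7:30633616-30635852 on the minus strand and Tal1 chr4:115056426-115071755 on the plus strand.

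The genes on either side of Etv2 were lower as well on the FPKM scale. Cox6b1, a subunit of respiratory complex IV, lies 7.47 kilobases away on the same strand and was at 60.1 FPKM in Aldh1a2-/- and 128 FPKM in wild-type (log2 ratio -1.09). Rbm42, an RNA-binding protein gene 5.14 kilobases away on that strand, was at 13.6 FPKM in Aldh1a2-/- and 26.7 FPKM in wild-type (log2 ratio -0.97), a call lost on the TPM scale. Both neighbours stood higher than Etv2 in each sample, and their part in the Etv2 values was not tested.

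Of 16 measured genes of the ETS family without Etv2, 4 were higher and 6 lower, beside 23.6% and 22.0% of all measured genes, with a median log2 ratio of -0.17. Erg, an ETS factor of established endothelium, was higher (5.31 FPKM in Aldh1a2-/- and 1.25 FPKM in wild-type, log2 ratio 2.08), and Ets2 was higher (46.4 FPKM in Aldh1a2-/- and 12.3 FPKM in wild-type, log2 ratio 1.92). Fli1, another endothelial and blood ETS factor, was at 12.5 FPKM in Aldh1a2-/- and 11.5 FPKM in wild-type (log2 ratio 0.12). Ets1, of the same list, was lower (8.38 FPKM in Aldh1a2-/- and 20.4 FPKM in wild-type, log2 ratio -1.28). Elk3 was lower (0.501 FPKM in Aldh1a2-/- and 5.31 FPKM in wild-type, log2 ratio -3.41), as was Elk1 (1.41 FPKM in Aldh1a2-/- and 4.83 FPKM in wild-type, log2 ratio -1.77). The Elk3 value in Aldh1a2-/- lies at the floor.

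The partners of Tal1 and other progenitor factors were mixed. Of 9 measured genes among 19, 1 was higher and 2 were lower (beside 23.6% and 22.0% of all measured genes), with a median log2 ratio of -0.12. With a floor in either sample and a pseudocount of 0.5 FPKM, 3 were higher and 5 lower. The shares of all genes under that setting were 24.9% and 30.9%. Lmo2, the bridging protein that holds Tal1 in its complex, was at 17.8 FPKM in Aldh1a2-/- and 18.2 FPKM in wild-type (log2 ratio -0.03), and the Tal1 level was 0.209 of it in Aldh1a2-/- and 0.173 of it in wild-type. Tcf3, a dimer partner of Tal1, was lower at 51.1 FPKM in Aldh1a2-/- and 95.3 FPKM in wild-type (log2 ratio -0.90), a call lost on the TPM scale, and Tcf12, another partner, had a log2 ratio of -0.69. Hhex, a homeobox gene of early endothelium and blood, was higher (13.3 FPKM in Aldh1a2-/- and 4.22 FPKM in wild-type, log2 ratio 1.66), and Kit, the stem cell factor receptor, was lower (1.29 FPKM in Aldh1a2-/- and 5.07 FPKM in wild-type, log2 ratio -1.98). Another 3 had a listed 0 in Aldh1a2-/- beside a wild-type value over the floor, and 2 had the reverse. The 3 were Mecom, a zinc finger factor of blood stem cells (6.53 FPKM in wild-type), Myb (3.55 FPKM) and Lyl1 (0.663 FPKM). The 2 were the blood factors Gfi1b (4.96 FPKM in Aldh1a2-/-) and Runx1 (2.50 FPKM in Aldh1a2-/-).

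Kdr stood first, Cdh5 second, Flt4 sixth and Tie1 ninth among the 10 genes in both samples, and the other places changed. In Aldh1a2-/- the descending order was Kdr, Cdh5, Tek, Eng, Pecam1, Flt4, Flt1, Tal1, Tie1, Etv2, and in wild-type it was Kdr, Cdh5, Pecam1, Etv2, Tek, Flt4, Tal1, Flt1, Tie1, Eng. Eng and Etv2 made the longest moves, both of 6 places and in opposite directions. The highest of the 10 was 7.35 times the lowest in Aldh1a2-/- and 17.7 times in wild-type. Kdr made up 19.4% of their summed FPKM in Aldh1a2-/- and 34.0% in wild-type, Cdh5 17.7% in Aldh1a2-/- and 12.9% in wild-type, and Tek 17.6% in Aldh1a2-/- and 9.57% in wild-type. With 1 sample each, neighbours in these orders cannot be separated beyond a spread between embryos.

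**Figure D3:**
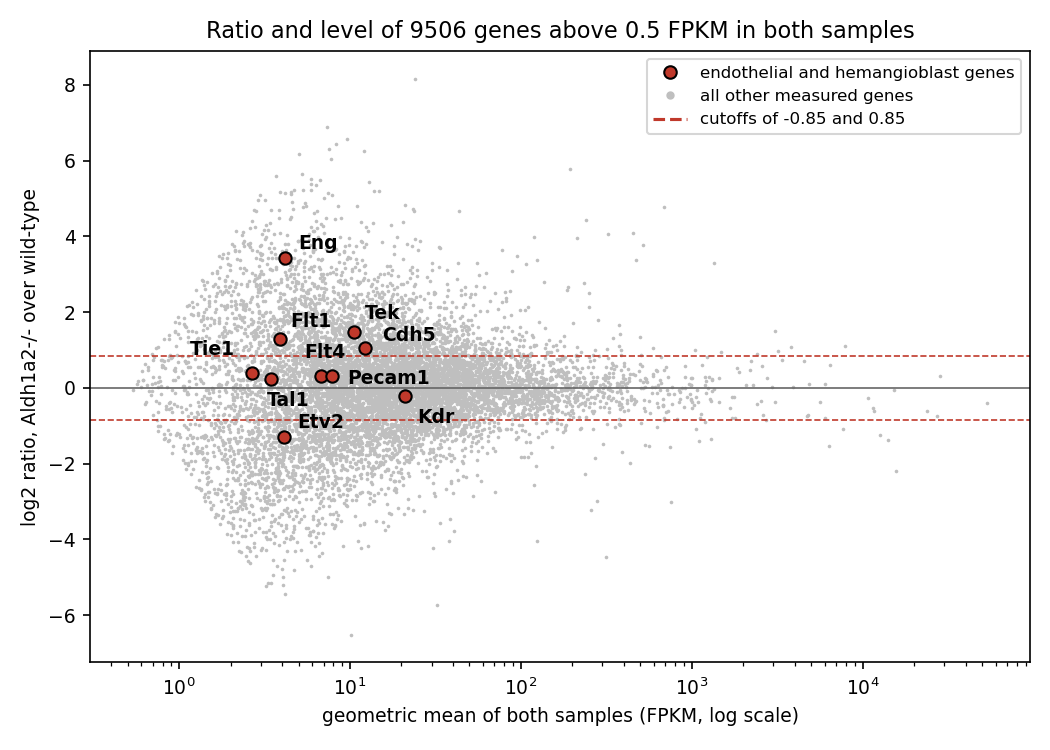
Log2 ratio of Aldh1a2-/- over wild-type against the geometric mean level in FPKM (log scale) for 9506 measured genes (grey) and the 10 endothelial and hemangioblast genes (red), with the cutoffs at -0.85 and 0.85 dashed. Eng stands in the upper part of the cloud, the other called genes stand within its dense part, and ratios of all genes spread more widely at low levels.

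Most of the 10 genes stood at low to middle levels, where many genes passed a cutoff. By geometric mean of both samples, 5 of the 10 (Flt1, Tie1, Eng, Etv2 and Tal1) lay at 2 to 5 FPKM, where 31.2% of 1491 measured genes were higher and 37.8% lower. Flt4 and Pecam1 lay at 5 to 10 FPKM (29.3% higher and 27.4% lower), Tek and Cdh5 at 10 to 20 FPKM (24.7% higher and 20.6% lower), and Kdr at 20 to 50 FPKM (19.7% higher and 15.3% lower). At 50 FPKM or more, where none of the 10 lay, 11.6% were higher and 7.34% lower. Of all measured genes, 84.4% had a lower ratio than Flt1, 87.1% than Tek, 81.0% than Cdh5 and 14.3% than Etv2. The calls of Flt1, Tek, Cdh5 and Etv2 are therefore of a size that many genes of these 2 samples reach.

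Further endothelial genes gave calls in both directions. Of 36 in the table, 21 were measured, of which 11 were higher and 2 lower, beside 23.6% and 22.0% of all measured genes, with a median log2 ratio of 0.89. With a floor in either sample and a pseudocount of 0.5 FPKM, 15 were higher and 9 lower. The shares of all genes under that setting were 24.9% and 30.9%. The higher ones included Mcam, an adhesion molecule (10.6 FPKM in Aldh1a2-/- and 1.45 FPKM in wild-type, log2 ratio 2.87), Cldn5, the endothelial tight junction claudin (11.4 FPKM in Aldh1a2-/- and 1.94 FPKM in wild-type, log2 ratio 2.55), and Sox17, a factor of arterial endothelium that endoderm also makes (11.4 FPKM in Aldh1a2-/- and 2.22 FPKM in wild-type, log2 ratio 2.36). Arhgef15, an endothelial guanine nucleotide exchange factor, was lower, at 0.737 FPKM in Aldh1a2-/- and 6.64 FPKM in wild-type (log2 ratio -3.17). Another 6 had a listed 0 in Aldh1a2-/- beside a wild-type value over the floor, and 2 had the reverse. The 6 included Icam2 (8.46 FPKM in wild-type), Emcn (7.14 FPKM), Esam (6.20 FPKM) and the arterial Notch ligand Dll4 (5.39 FPKM). The 2 were Sox18 (4.43 FPKM in Aldh1a2-/-) and Gja4 (1.38 FPKM in Aldh1a2-/-). Of 5 endothelial markers used to check the cell type beside the genes described here, Cldn5, Cd34 and Egfl7 were above 0.5 FPKM in both samples, and Esam and Emcn had a listed 0 in Aldh1a2-/-. Erg and Fli1 are counted both among the 36 further endothelial genes and in the ETS family.

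Markers of red blood cells and yolk sac were higher, as Eng, Tek, Flt1 and Cdh5 were. Of 17 primitive red blood cell markers in the table, 8 were measured. All 8 were higher, beside 23.6% of all measured genes (median log2 ratio 4.12). Their FPKM summed over all 17 to 6017 in Aldh1a2-/- and 306 in wild-type, a ratio of 19.7. Alas2, the heme synthesis enzyme of red cells, was at 84.6 FPKM in Aldh1a2-/- and 1.96 FPKM in wild-type, and the erythroid factor Nfe2 was at 21.4 FPKM in Aldh1a2-/- and 0.945 FPKM in wild-type. Gata1, the factor that defines the lineage, was at 15.9 FPKM in Aldh1a2-/- and listed at 0 in wild-type. Of 12 yolk sac visceral endoderm markers, 11 were measured and all 11 were higher, beside 23.6% of all measured genes. Their median log2 ratio was 3.30, and FPKM summed over the 12 to 7140 in Aldh1a2-/- and 509 in wild-type. Apoa2, an apolipoprotein of that tissue, was at 408 FPKM in Aldh1a2-/- and 1.42 FPKM in wild-type, and Amn, the amnionless endocytic receptor, was at 50.4 FPKM in Aldh1a2-/- and listed at 0 in wild-type. These ratios exceed those of the 10 genes apart from Eng, and the part of yolk sac and blood material in the values of the 10 genes was not tested. The marker lists were chosen with earlier results of these data known.

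Of 15 heart muscle and endocardium markers, 3 were measured and all 3 were higher, beside 23.6% of all measured genes. Their median log2 ratio was 1.75, and sums over the 15 were 93.5 FPKM in Aldh1a2-/- and 38.5 FPKM in wild-type. Tnnc1, a troponin, was at 39.2 FPKM in Aldh1a2-/- and 2.51 FPKM in wild-type, whereas the myosin light chain Myl4 was listed at 0 in Aldh1a2-/- and at 7.15 FPKM in wild-type. The other measured genes were Tnnt2 (29.8 FPKM in Aldh1a2-/- and 8.82 FPKM in wild-type) and Myh7 (7.92 FPKM in Aldh1a2-/- and 3.11 FPKM in wild-type). Actc1, cardiac actin, was at 0.0531 FPKM in Aldh1a2-/- and 6.13 FPKM in wild-type. The endocardial gene Npr3 was at 0.463 FPKM in Aldh1a2-/- and 9.41 FPKM in wild-type. In the other direction, Tnni1 was at 13.4 FPKM in Aldh1a2-/- and 0.436 FPKM in wild-type. Myl7 was at 2.36 FPKM in Aldh1a2-/- and listed at 0 in wild-type. With a floor in either sample and a pseudocount of 0.5 FPKM, 5 heart markers were higher and 4 lower. The shares of all genes under that setting were 24.9% and 30.9%. A total of 6 of the 15 were listed at 0 in Aldh1a2-/- and 4 in wild-type, 3 of them in both. Of 8 mural cell markers, 4 were measured, 2 higher and 1 lower, beside 23.6% and 22.0% of all measured genes. Their median log2 ratio was 0.21, and sums over the 8 were 94.3 FPKM in Aldh1a2-/- and 63.3 FPKM in wild-type. Acta2, smooth muscle actin, was at 46.0 FPKM in Aldh1a2-/- and 13.3 FPKM in wild-type (log2 ratio 1.78). Des was at 17.6 FPKM in Aldh1a2-/- and 9.51 FPKM in wild-type (log2 ratio 0.89). Tagln, a smooth muscle actin-binding protein, was at 11.3 FPKM in Aldh1a2-/- and 28.1 FPKM in wild-type (log2 ratio -1.32). Pdgfrb, the pericyte receptor, was at 8.85 FPKM in Aldh1a2-/- and 12.2 FPKM in wild-type (log2 ratio -0.47). Rgs5 was at 10.6 FPKM in Aldh1a2-/- and listed at 0 in wild-type. The part of these cell types in the values of the 10 genes was not tested either.

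**Figure D4:**
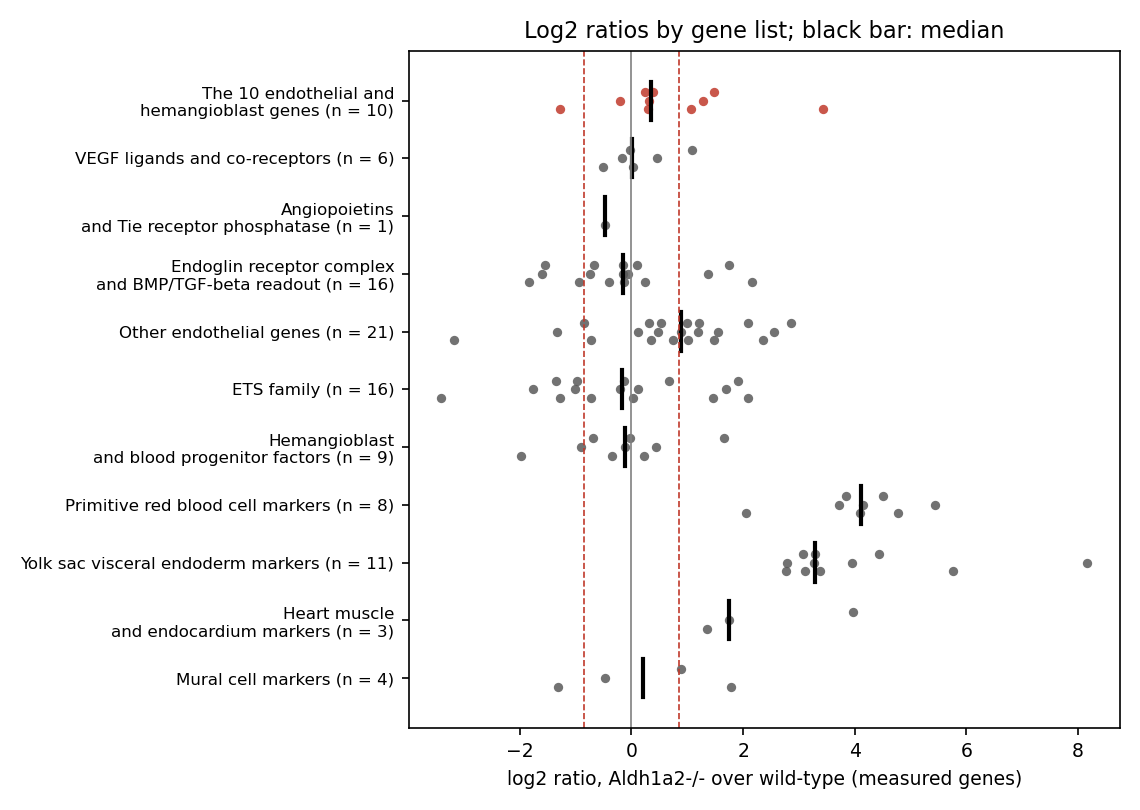
Log2 ratio of Aldh1a2-/- over wild-type of each measured gene (points) for the 10 endothelial and hemangioblast genes (red) and for the other gene lists (grey), with the list median (black bar), the number measured (n) and the cutoffs at -0.85 and 0.85 (dashed). Red blood cell and yolk sac visceral endoderm markers all lie above the upper cutoff, with medians of 4.12 and 3.30, while the 10 genes spread from -1.29 to 3.44 around a median of 0.35.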

How the data were processed

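The authors deposited a table of FPKM values for 24340 genes on mm10, with 1 value per sample. STAR, Cufflinks and Cuffdiff stand in the submitters' processing notes, without versions, whereas the methods of the study name TopHat and edgeR. The labels describe a total RNA kit and a poly(A) selection kit, with single reads of 75 bases. The deposited fold changes and p-values, the authors' own comparison, were not used. The status FAIL was read as a quality mark, and 1 line of the table was empty.

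Log2 ratios were taken without a pseudocount. Depth came from the steps of low FPKM values of genes with a single transcript, using transcript length minus 199 bases, for which 7 of 7 genes used in Aldh1a2-/- and 10 of 10 in wild-type lay within 0.05 of a whole step. Fragments assume the longest GENCODE M21 transcript. Motifs were searched in 32851 RefSeq promoters (GRCm38.p6). Scripts were tested on simulated data (Python 3.11.15, numpy 2.4.6, pandas 2.3.3, scipy 1.17.1, matplotlib 3.10.9).

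Named genes are the 10 genes, up to 4 measured genes of each list with the largest absolute log2 ratio, genes of at least 5 FPKM in one sample and at 0 in the other, Aldh1a2 and the nearest genes of the 10. Other genes were named after their values were seen. The 10 genes and the 10 further lists (161 symbols) were chosen with earlier results of these data known. Alternatives were other floors, pseudocounts, scalings and cutoffs, other transcript lengths and promoter windows and, added after seeing the data, leaving out FAIL genes and another length for the depth.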

Additional observations from a re-analysis of the deposited data

How the results depend on the processing

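Each of the 10 genes kept its sign and its side of the cutoffs under 7 alternatives (6 for Tek). Not all of these are separate checks. Leaving out FAIL genes cannot change the ratio of a gene that stays. For the 10 genes the floor in either sample gives the same ratios as the pseudocount of 0.5 FPKM alone. The scalings add a fixed shift to every ratio, 0.16 on the TPM scale. The log2 ratios ranged from 2.70 to 3.60 for Eng, 1.35 to 1.64 for Tek, 1.02 to 1.44 for Flt1, 0.97 to 1.22 for Cdh5 and -1.38 to -1.03 for Etv2. With a floor of 5 FPKM in both samples, 5 of the 10 genes were measured, of which 2 were above 0.85 and 0 below -0.85, since Eng, Flt1 and Etv2 were under that floor in one sample. At that floor 17.7% of all measured genes were above 0.85 and 14.4% below -0.85. The TPM scale moved the median ratio of all genes by 0.16 and gave 2610 genes higher and 1805 lower, so that 59.1% of the calls were higher against 51.8% on the FPKM scale. The medians of the endoglin complex and hemangioblast lists turn positive on it, and that of the VEGF ligand list turns negative with upper quartile scaling or median centring. With a floor in either sample and a pseudocount of 0.5 FPKM, 3081 genes were higher and 3812 lower, 24.9% and 30.9% of 12354 genes. The endothelial list then had 15 genes higher and 9 lower instead of 11 and 2. Under this setting the heart list had 5 higher and 4 lower instead of 3 and 0. The hemangioblast list had 3 higher and 5 lower instead of 1 and 2, and the angiopoietin list 3 lower instead of 0. With the shortest coding transcript in place of the longest, the counting interval was 2.89 to 4.06 for Eng, 0.49 to 1.65 for Cdh5, which crosses the cutoff, and -0.35 to 0.83 for Tal1, which holds 0. No paired analysis was possible because each genotype has 1 sample. Depth limits a ratio by the transcript length assumed, and the lack of replicates limits every ratio.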

Other observations

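The nearest genes of the other endothelial genes gave values on both sides of 0. The gene 2610528J11Rik, 37.4 kilobases from Tie1, was at 14.4 FPKM in Aldh1a2-/- and 2.04 FPKM in wild-type (log2 ratio 2.81). Lrrc19, 46.1 kilobases from Tek, was at 2.40 FPKM in Aldh1a2-/- and 1.24 FPKM in wild-type (log2 ratio 0.96), and Ift74, at the same locus, had a log2 ratio of -0.71. Kit, 277 kilobases from Kdr, had a log2 ratio of -1.98, and Srd5a3, a steroid reductase family gene 162 kilobases away on the other side, was at 4.11 FPKM in Aldh1a2-/- and 8.10 FPKM in wild-type. Pan3, a deadenylase subunit gene 13.7 kilobases from Flt1, was at 8.96 FPKM in Aldh1a2-/- and 17.7 FPKM in wild-type (log2 ratio -0.98), a call lost on the TPM scale, and Pomp, a proteasome maturation gene on the other side, had a log2 ratio of 0.55. Stil, a centriole gene 13.2 kilobases from Tal1, was at 5.16 FPKM in Aldh1a2-/- and 8.99 FPKM in wild-type (log2 ratio -0.80). Cdk9, a transcription kinase gene 11.6 kilobases from Eng, was at 11.2 FPKM in Aldh1a2-/- and 18.8 FPKM in wild-type (log2 ratio -0.75), and Ak1 on its other side was at 0.363 FPKM in Aldh1a2-/- and 2.22 FPKM in wild-type. Tex2, 41.3 kilobases from Pecam1, was at 10.8 FPKM in Aldh1a2-/- and 7.55 FPKM in wild-type (log2 ratio 0.51). The listed neighbours of Flt4 and Cdh5 were at 0 in both samples.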
